A study of Mus musculus with 2 samples.

Results

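The interferon response genes and the genes of antigen presentation by MHC class I were examined as a group of 45 genes, listed by symbol, in mouse jejunal crypt cells treated with an antagonist of the Wnt receptors FZD5 and FZD8 or with an Fc control protein. A listed gene counted as measured where it had 20 or more unique molecular identifiers (UMIs, 1 per captured transcript) over both libraries. Of the 45 genes, 44 were measured, among 13757 genes measured and 31053 genes in the files, and Mx2 was not analysed here. The jejunal cells were sorted for the GFP of the Lgr5-eGFP-IRES-CreER allele, from mice aged 10 to 12 weeks and labelled female, so that both groups carry the reporter allele. Each condition had 3 mice and 1 droplet library of 3' transcript ends, with no label that ties a cell to a mouse. Dose, duration and route of treatment are not stated in the sources used here. Every comparison below is therefore between 2 libraries and not between conditions, no test was made, and each interval is at the 95% level and reflects nothing but counting error.

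Interferons are secreted proteins that bind receptors on the cell surface and act through JAK kinases, STAT factors and interferon regulatory factors. Type I and type III interferons act mainly through the ISGF3 complex, which holds Stat2 and Irf9 and binds the interferon-stimulated response element (ISRE) in antiviral genes, whereas interferon gamma acts mainly at gamma-activated sequences (GAS). The same signals raise the immunoproteasome and the peptide transporters that load MHC class I, which presents peptides of the cell's own proteins to CD8 T cells, and in the intestine the epithelium also holds a basal level of these genes under the influence of the microbiota.

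Promoter windows of the members, 250 bases before and 50 after the annotated start, were taken from RefSeq (GRCm38.p6), which had an entry for 35 of the 44 members. The letters GAAANNGAAA, the core of the ISRE, were searched on both strands. Some genes had more than 1 window, and a gene was counted where any of its windows held the letters. They were found in 17 of 35 members (48.6%) and in 3.98% of the 19407 genes of the files that had an entry. The letters TTCNNNGAA, a GAS, read the same on both strands and were found in 10 of 35 members (28.6%) and in 9.28% of all these genes. The 2 motifs can share bases at their ends. The ISRE core was present in 10 of 16 sensors and antiviral effectors (62.5%) and in 5 of 5 GTPases. It was present in 1 of 9 antigen processing and MHC class I genes (11.1%), the 1 being B2m. A match is a description of letters and not evidence of binding. The 5 windows below are printed 5' to 3' on the gene's strand with the ISRE core in capitals. They are shown because their genes have ratios on both sides of 1, as described further on, and they leave out the 2 lowest ratios. Isg15 (chr4:156200769-156201068, minus strand) holds 3 overlapping cores, Ifit3 (chr19:34583279-34583578, plus strand) 2 that read in the opposite direction, Ifitm3 (chr7:141010695-141010994, minus strand) 2 and Oas1a (chr5:120907476-120907775, minus strand) 2 overlapping cores. Psmb9 (chr17:34187281-34187580, minus strand), from a start site that faces that of Tap1 so that their windows share 275 of 300 bases, holds none.
Isg15: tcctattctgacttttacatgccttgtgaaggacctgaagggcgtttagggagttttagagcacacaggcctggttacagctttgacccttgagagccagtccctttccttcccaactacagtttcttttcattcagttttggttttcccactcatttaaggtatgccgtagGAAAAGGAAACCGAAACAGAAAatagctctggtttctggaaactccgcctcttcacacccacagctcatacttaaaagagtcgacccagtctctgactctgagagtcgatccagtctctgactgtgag
Ifit3: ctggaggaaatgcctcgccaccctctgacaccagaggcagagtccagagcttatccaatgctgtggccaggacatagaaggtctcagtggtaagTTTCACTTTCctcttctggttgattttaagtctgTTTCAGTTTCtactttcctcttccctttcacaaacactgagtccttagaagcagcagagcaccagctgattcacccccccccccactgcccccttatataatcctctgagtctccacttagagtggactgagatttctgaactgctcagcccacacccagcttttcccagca
Ifitm3: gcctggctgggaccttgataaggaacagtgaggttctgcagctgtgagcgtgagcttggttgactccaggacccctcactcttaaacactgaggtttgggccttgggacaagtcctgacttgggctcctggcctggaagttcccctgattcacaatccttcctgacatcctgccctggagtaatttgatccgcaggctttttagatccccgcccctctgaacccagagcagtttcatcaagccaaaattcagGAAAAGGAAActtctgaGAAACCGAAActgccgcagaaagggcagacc
Oas1a: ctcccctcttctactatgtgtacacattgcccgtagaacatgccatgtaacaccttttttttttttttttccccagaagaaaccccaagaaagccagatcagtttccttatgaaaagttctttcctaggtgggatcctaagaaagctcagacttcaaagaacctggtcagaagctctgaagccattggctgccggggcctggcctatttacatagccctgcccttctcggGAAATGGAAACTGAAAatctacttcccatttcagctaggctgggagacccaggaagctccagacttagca
Psmb9: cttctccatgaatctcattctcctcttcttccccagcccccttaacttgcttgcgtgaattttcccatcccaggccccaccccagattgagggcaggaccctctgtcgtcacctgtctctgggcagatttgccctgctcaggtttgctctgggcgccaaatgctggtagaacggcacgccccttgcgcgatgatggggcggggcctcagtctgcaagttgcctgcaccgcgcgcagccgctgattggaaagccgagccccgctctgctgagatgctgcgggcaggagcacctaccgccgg

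Cells were kept from 500 genes upward and up to 20% mitochondrial UMIs, which gave 11263 cells in the control library (66206242 UMIs, median 4478 per cell), and 11019 in the antagonist library (54328008 UMIs, median 2732). The libraries differed from each other in sex-linked transcripts, and the control library went against the sex label. Levels are given in CPM (UMIs of a gene as parts per 1e6 of all UMIs of the library). Y-linked genes summed to 106 CPM in the control and 5.60 CPM in the antagonist library, and Xist was at 1.33 and 512 CPM. The sex of the mice and the treatment therefore cannot be told apart in any value below. Of the cell barcodes, 67 were found among the kept cells of both libraries. The 10 stem cell markers summed to 4107 and 843 CPM. The gate on these markers, described below, came last, and 48.6% of control and 3.24% of antagonist cells were placed in the stem class. These are not the shares of all cells with the markers, because dividing cells had been gated before. In the control library, cells in G2 and mitosis and in S phase had medians of 44.9 and 43.0 stem marker UMIs per 10000, above the limit of 30. In the antagonist library these medians were 6.75 and 8.32. Markers of immune cells, which also respond to interferon, were low. The 13 lymphocyte markers summed to 16.1 and 16.4 CPM, the 8 myeloid markers to 4.56 and 4.64 CPM, and the 6 stromal and endothelial markers to 0.287 and 0.147 CPM, with 3 of those 6 at 0 in both libraries. The 6 B and plasma cell markers, 1 of them at 0, summed to 9.62 and 3.59 CPM. Single markers differed more than these sums. Rac2 gave 704 of 1067 control and 509 of 891 antagonist lymphocyte UMIs. Gzma had 28 and 65 UMIs and Cd3e 3 and 11, whereas Trbc2 had 14 and 2 and Coro1a 10 and 4. Jchain had 255 and 1 UMIs and Mzb1 186 and 2, and Cd79b was nearer level at 184 and 189. With the cells left out that carried at least 2 marker genes of 1 non-epithelial type (tuft cells kept) or 3 over all types, the median of the 44 members was -0.20, against -0.19 with them.

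Over all kept cells the 44 members were on balance slightly lower in the antagonist library, by about as much as all genes were. Their median log2 ratio, antagonist over control, was -0.19, against -0.15 over all 13757 genes. The ratio was under 1 for 34 members and over 1 for 10, and the interval lay below 1 for 30 and above 1 for 8. A gene was called where its ratio was at least 1.5-fold in either direction. Of the 44 members, 7 (15.9%) were called lower, beside 19.3% of all genes, and 0 were called higher, beside 6.50% of all genes. The share called lower was thus near the background. The members split by role. The 23 sensors and antiviral effectors, called antiviral below, had a median log2 ratio of -0.25 and summed to 3714 CPM in the control and 2688 CPM in the antagonist library. The 10 antigen processing and MHC class I genes had a median of 0.06 and sums of 2422 and 2480.2 CPM. The sign of that second median depends on the scaling: it was -0.03 with each cell weighted alike or thinned to 3000 UMIs, and 0.21 after division by the median ratio of all genes. The difference between both medians was -0.31 and ranged from -0.39 to -0.24 over 15 alternatives.

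**Figure D1:**
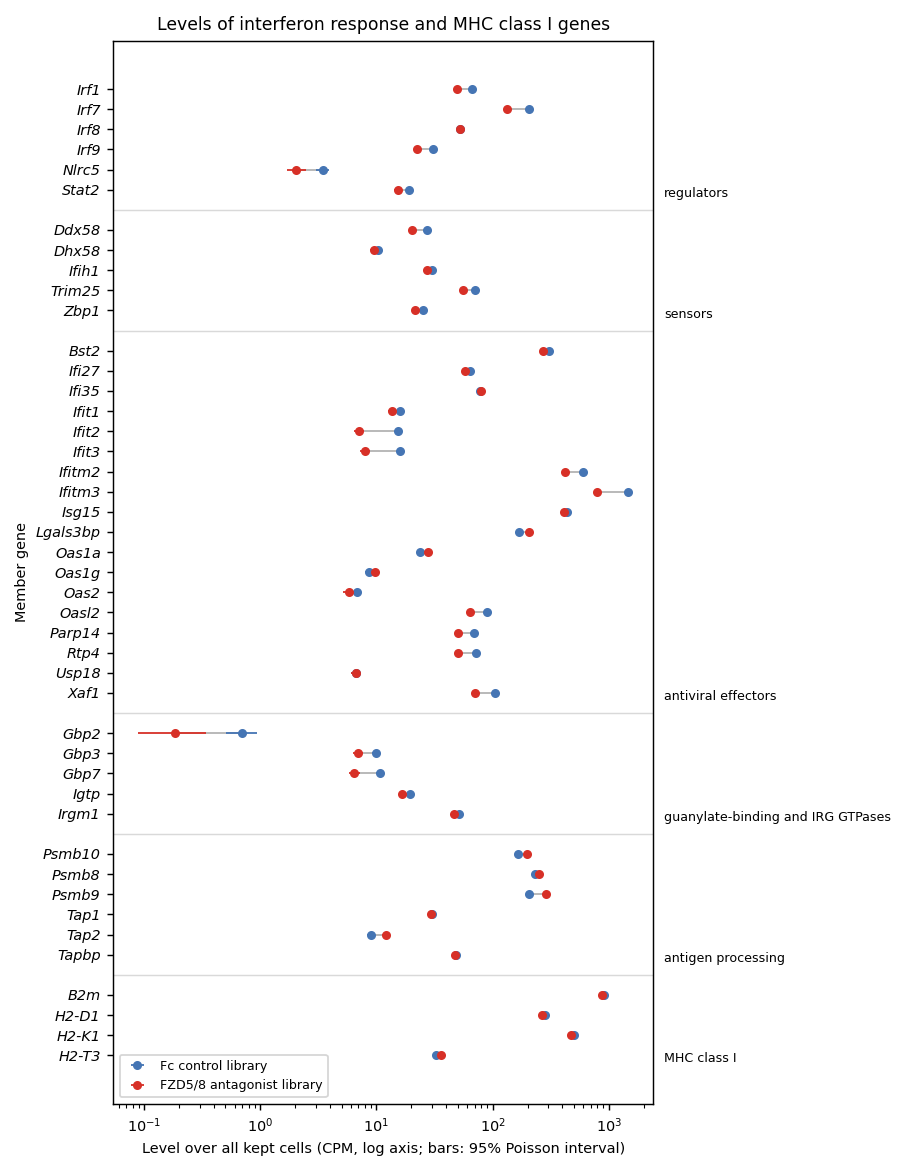
Levels of the 44 measured members over all kept cells, in CPM on a log axis, in the Fc control library (blue) and the FZD5/8 antagonist library (red), grouped by role. Bars are 95% Poisson intervals. Levels spanned from under 1 CPM for Gbp2 to 1475 CPM for Ifitm3 in the control library, and the gaps of at least 1.5-fold were in Ifit2, Ifit3, Ifitm3, Gbp2, Gbp7, Irf7 and Nlrc5.

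The 6 regulators were all lower in the antagonist library, with a median log2 ratio of -0.43, and 2 of them were called. Irf8, the weakest, turned to 0.13 after division by the median ratio of all genes. Irf7, the factor that amplifies type I interferon production and lies on chr7:141262706-141266481 (GRCm38), was at 204 CPM (200.4 to 207) in the control and 134 CPM (131 to 137) in the antagonist library, a level 1.52-fold lower (1.48 to 1.57). Nlrc5, the transactivator of MHC class I genes, was at 3.44 CPM (228 UMIs) and 2.04 CPM (111 UMIs), 1.69-fold lower (1.34 to 2.13). The transactivator was thus called lower in the same libraries in which B2m, H2-K1 and H2-D1, described below, differed by at most 1.06-fold. Irf1, a factor induced by interferon gamma, was at 66.5 and 49.8 CPM. Irf9 and Stat2, both part of ISGF3, were at 30.5 and 22.5 CPM and at 19.2 and 15.3 CPM. Irf8 was at 52.6 and 51.9 CPM, and its interval included equality.

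The 5 sensors of foreign nucleic acid were lower in the antagonist library, except that Dhx58 turned to 0.04 on the log2 scale after division by the median ratio of all genes. Their median log2 ratio was -0.25 and none of the 5 was called. Ddx58, which encodes the RNA sensor RIG-I, was at 27.0 CPM in the control and 20.2 CPM in the antagonist library. Trim25, the ubiquitin ligase that activates RIG-I, was at 71.0 and 55.7 CPM. Ifih1, which encodes MDA5, was at 30.2 and 27.0 CPM, and Zbp1, a sensor of Z-form nucleic acid, at 25.4 and 21.4 CPM. Dhx58, which encodes LGP2, was at 10.3 and 9.57 CPM, with an interval that included equality.

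Among the 18 antiviral effectors, 13 were lower and 5 higher in the antagonist library, with a median log2 ratio of -0.23, and 3 were called lower. Ifit2 and Ifit3, antiviral proteins of the IFIT family on chromosome 19, differed most. Ifit2 (chr19:34550694-34576419) was at 15.2 CPM (14.3 to 16.2) in the control and 7.05 CPM (6.36 to 7.79) in the antagonist library, 2.16-fold lower (1.91 to 2.43). Ifit3 (chr19:34583531-34588731) was at 15.8 CPM (14.9 to 16.8) and 7.99 CPM (7.25 to 8.78), 1.98-fold lower (1.77 to 2.22). Ifit1 of the same family (chr19:34640871-34650009), which binds RNA that lacks the host's cap methylation, differed less, at 16.0 and 13.5 CPM, 1.19-fold lower (1.08 to 1.31).

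The most abundant member was Ifitm3, a membrane protein that hinders the entry of viruses (chr7:141009586-141010770). It was at 1475 CPM (97648 UMIs) in the control and 796 CPM (43261 UMIs) in the antagonist library, 1.85-fold lower (1.83 to 1.87). Ifitm2, a close relative, was at 596 and 419 CPM, 1.42-fold lower (1.40 to 1.45). These 2 genes made up most of the difference between the libraries in the summed antiviral level. Ifitm2 is uncertain, because 187 of the last 500 bases of its transcript were 96.3% identical to Gm45717 and reads could be split between them. Isg15, the ubiquitin-like modifier often used as the index gene of an interferon response (chr4:156199424-156200818), differed little. It was at 435 CPM (429.9 to 440) in the control and 409.7 CPM (404 to 415) in the antagonist library, 1.06-fold lower (1.04 to 1.08), and its log2 ratio reached 0.12 under other settings. Bst2, or tetherin, which holds budding virus at the cell surface, was at 306 and 273 CPM, 1.12-fold lower (1.10 to 1.15).

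Xaf1, a gene linked to cell death in response to interferon, was at 104 and 70.5 CPM, 1.47-fold lower (1.42 to 1.53). Rtp4, an antiviral chaperone, was at 71.7 and 50.7 CPM, 1.41-fold lower (1.35 to 1.48). Oasl2, of the oligoadenylate synthetase family, was at 89.4 and 64.5 CPM, 1.39-fold lower (1.33 to 1.45). These genes lay below the median of all genes but short of 1.5-fold. In the other direction, Lgals3bp, a secreted galectin ligand, was at 170.2 and 204 CPM, with a ratio of 1.20 (1.17 to 1.23). Oas1a, a synthetase that activates RNase L, was at 23.9 and 27.8 CPM, with a ratio of 1.17 (1.09 to 1.25), and Oas1g was at 8.59 and 9.76 CPM, with a ratio of 1.14 (1.01 to 1.28). Both are uncertain, because the last 500 bases of Oas1a were 98.0% identical to Oas1g. Ifi35 was at 78.1 and 79.5 CPM and Usp18, the protease that removes Isg15 from proteins, at 6.68 and 6.70 CPM, both with intervals that included equality. The remaining effectors, Ifi27, Oas2 and Parp14, had lower levels in the antagonist library, with log2 ratios that ranged up to 0.02 under other settings for Ifi27 and Oas2.

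The 5 GTPases, which attack the membranes around intracellular pathogens, had the lowest median of the 6 role groups, -0.52, and 2 were called lower. Under division by the median ratio of all genes, Irgm1 turned to 0.02. Gbp7 was at 10.8 CPM (714 UMIs) in the control and 6.44 CPM (350 UMIs) in the antagonist library, 1.67-fold lower (1.47 to 1.91). Gbp3 was at 9.92 and 6.90 CPM, 1.44-fold lower (1.26 to 1.64). The other called gene, Gbp2, rested on 46 and 10 UMIs and is named here after its values were seen. The IRG proteins differed less. Igtp was at 19.4 and 16.5 CPM and Irgm1 at 51.2 and 46.6 CPM.

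The antigen processing genes stood on the other side of the median of all genes. Of the 6, 4 were higher in the antagonist library and none was called, with a median log2 ratio of 0.20. The 3 subunits of the immunoproteasome, which trims proteins into peptides suited to MHC class I, were all higher. Psmb9 (chr17:34181987-34187764) was at 206 CPM (202 to 209) in the control and 286 CPM (281 to 290.3) in the antagonist library, with a ratio of 1.39 (1.36 to 1.42), the highest of the 44 members. Psmb10 was at 166 and 199 CPM, with a ratio of 1.20 (1.17 to 1.23). Psmb8 (chr17:34197721-34201454) was at 229.9 and 252 CPM, with a ratio of 1.09 (1.07 to 1.12), but its log2 ratio dropped to -0.04 at the lowest of 15 alternatives. Tap2 (chr17:34203527-34216321), a subunit of the transporter that carries peptides into the endoplasmic reticulum, was at 8.93 CPM (591 UMIs) and 12.1 CPM (658 UMIs), with a ratio of 1.36 (1.21 to 1.52). Its partner Tap1 (chr17:34187553-34197225) was at 29.8 and 29.5 CPM, with an interval of 0.927 to 1.06 for the ratio. Thus Psmb9 and Tap1, which lie head to head and overlap at their 5' ends, differed in their ratios. Tapbp, the bridge between transporter and MHC class I, was at 48.8 and 47.5 CPM.

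The MHC class I genes were nearly level between the libraries, with a median log2 ratio of -0.07 that changes sign after division by the median ratio of all genes. B2m, the invariant light chain (chr2:122147686-122153083), was at 915 CPM (908 to 922) in the control and 877 CPM (869 to 885) in the antagonist library, with a ratio of 0.959 (0.947 to 0.970). The heavy chain H2-K1 (chr17:33996017-34000347) was at 504 and 474 CPM, with a ratio of 0.942 (0.926 to 0.957). The heavy chain H2-D1 (chr17:35262730-35267499) was at 281 and 267 CPM, with a ratio of 0.950 (0.930 to 0.971). H2-D1 is uncertain, since its last 500 bases matched 3 other genes, with the longest match, to Cflar, over 148 bases at 95.3% identity. H2-T3, which encodes the thymus leukaemia antigen of the intestinal epithelium, was at 32.6 and 36.3 CPM, with a ratio of 1.11 (1.05 to 1.19). These 4 ratios lay above the median ratio of all genes, 0.900.

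**Figure D2:**
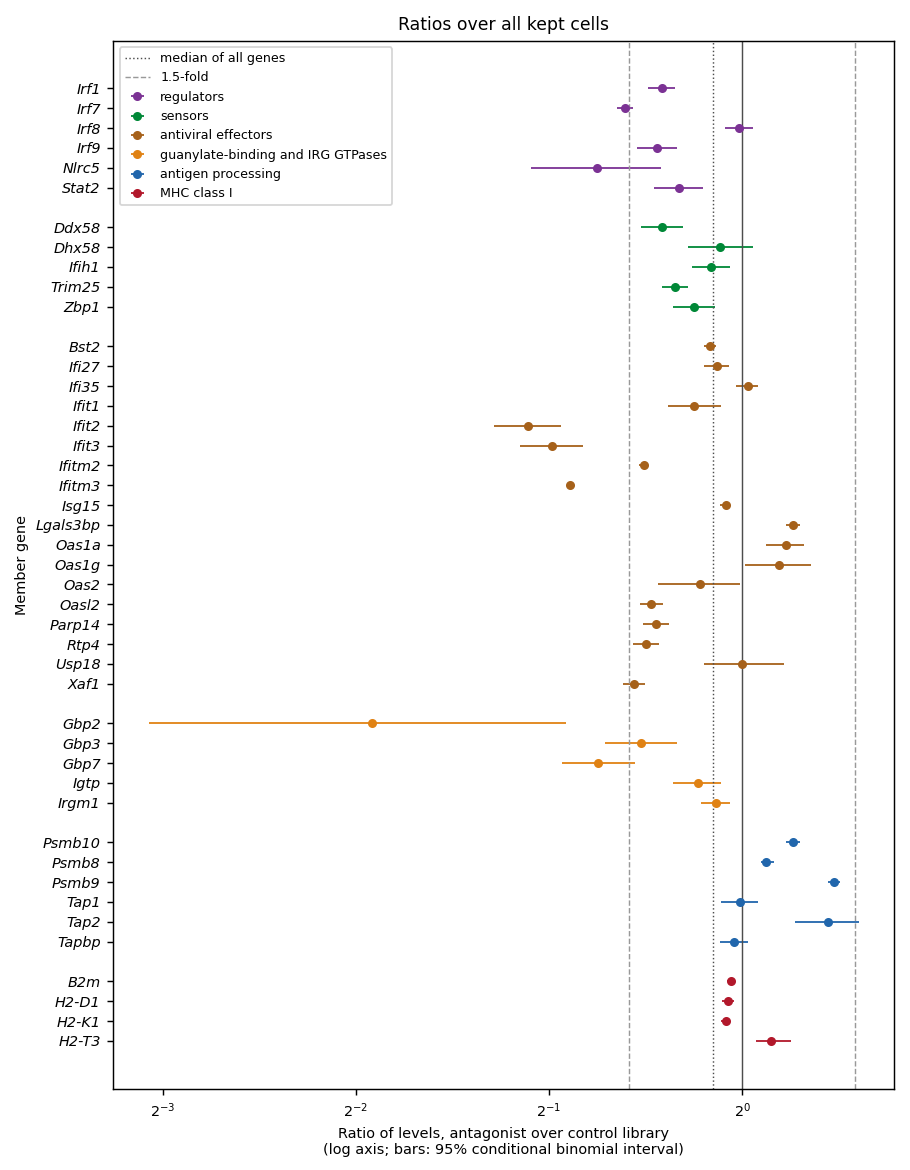
Ratio of levels, antagonist over control library, for the 44 members on a log axis, coloured by role, with 95% conditional binomial intervals. The solid line marks equality, the dotted line the median of all genes and the dashed lines 1.5-fold. Psmb9, Tap2, Psmb10 and Lgals3bp lie farthest to the right and Gbp2, Ifit2, Ifit3 and Ifitm3 farthest to the left, and members between the dotted and the solid line change sides when ratios are divided by the median of all genes.

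Per cell, antiviral UMIs were fewer in the antagonist library at the 5th percentile, the median and the 95th percentile, while the highest cells held 58 in the control and 62 in the antagonist library. Each cell was thinned at random to 3000 UMIs, which kept 7536 control and 5036 antagonist cells and left out 3727 and 5983 shallower ones. The 23 antiviral members together had a median of 11 UMIs per control cell (5th to 95th percentile, 4 to 22) and 8 per antagonist cell (3 to 16). The 1% of cells with the most antiviral UMIs held 2.93% of them in the control and 3.77% in the antagonist library. The 10 antigen presentation members had a median of 7 UMIs per cell in both libraries. Ifitm3 had a UMI in 88.7% of thinned control cells (88.0 to 89.4) and 82.0% of thinned antagonist cells (80.9 to 83.0), and in 89.3% and 74.8% without thinning. Irf7 had one in 42.8% and 30.6% of thinned cells and in 53.8% and 33.7% without thinning. For Psmb9 the shares were 44.4% and 59.1% thinned, against 52.1% and 53.5% without thinning. Isg15 went against its level, with a UMI in 55.4% and 60.4% of thinned cells, so no order was read from it, and its unthinned shares were 60.3% and 55.6%. No class of these cells is known to lack these genes, so no background share from free RNA was available.

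**Figure D3:**
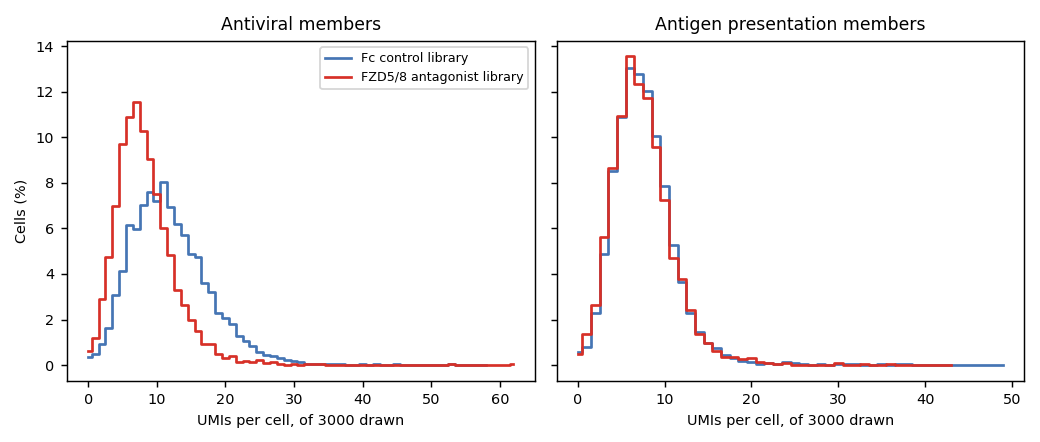
Distribution over cells of the summed UMIs of the 23 antiviral members (left) and the 10 antigen presentation members (right), after each cell was thinned to 3000 UMIs, in percent of 7536 control cells (blue) and 5036 antagonist cells (red). The antiviral distribution of the antagonist library lies to the left, with a median of 8 against 11, and the antigen presentation distributions lie on each other with a median of 7.

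Cells were sorted into 9 epithelial classes by the summed UMIs of marker genes, with limits set after the marker distributions had been seen. Such classes are ranges of a score and not cell types. For example, the stem class held 5469 control and 357 antagonist cells, of which 461 and 104 lay within 20% of its limit. On either side of that limit there were 824 control and 307 antagonist cells within 20% of it. The sizes of the classes differ between the libraries, from 201 control and 595 antagonist enterocyte cells to 1210 and 4270 cells that passed no gate, called remaining crypt cells. The classes also differ within. The median stem marker level was 59.5 and 41.9 UMIs per 10000 in the stem class, and 44.9 and 6.75 in the cells in G2 and mitosis. Paneth cell markers had medians of 24.5 to 107 UMIs per 10000 in every class other than Paneth, in both libraries.

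The levels of the members differed between the classes. Whether they varied more between classes than between libraries cannot be read, because a range over many classes tends to exceed the ratio between the libraries. Tuft cells, the chemosensory cells of the epithelium, had the highest level of 30 of the 44 members in the control library and of 27 in the antagonist library. Over all genes, 16.8% and 18.5% had their highest level in tuft cells. Paneth cells, which fill with antimicrobial peptides, had the lowest level of 42 and 31 members (95.5% and 70.5%), and of 75.6% and 54.9% of all genes. Paneth markers took up a median of 1719.7 and 2118 of every 10000 UMIs in these cells. Isg15 was at 1929 CPM in control and 1768 CPM in antagonist tuft cells, at 1413 and 1339 CPM in enterocytes, at 337 and 322 CPM in stem cells and at 49.3 and 165 CPM in Paneth cells. Irf7 had the same order at its ends, with 775 and 658 CPM in tuft cells and 56.1 and 68.0 CPM in Paneth cells. Thus the order of these 4 classes for Isg15 held in both libraries, while the libraries differed by little within tuft, enterocyte and stem cells. B2m was at 1285 and 1460.2 CPM in tuft cells, 1266 and 1409 CPM in enterocytes and 1017 and 989 CPM in stem cells. Psmb8 was highest in enterocytes, at 509 CPM in the control and 335 CPM in the antagonist library.

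The pair of abundant Ifitm genes had another pattern, with their highest level in the stem class. Ifitm3 was at 1848 and 1431 CPM in stem cells, 1549.6 and 924 CPM in S phase cells, 1548 and 833 CPM in G2 and mitosis, and 291 and 315 CPM in enterocytes. Ifitm2 was at 718 and 719.7 CPM in stem cells and 122 and 148 CPM in enterocytes. Ifit1 was highest in 2 classes, at 82.4 and 81.9 CPM in tuft cells and 81.1 and 87.6 CPM in enterocytes, against 14.6 and 10.8 CPM in stem cells. It was not high in every differentiated class, with 8.64 and 15.4 CPM in goblet cells. Ifit2 was at 8.24 and 7.39 CPM in enterocytes and 18.1 and 10.8 CPM in stem cells, the last of these on 8 UMIs. Ifi27 stood out in enteroendocrine cells, at 345 and 261 CPM, with at most 121 CPM in any other class of either library.

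**Figure D4:**
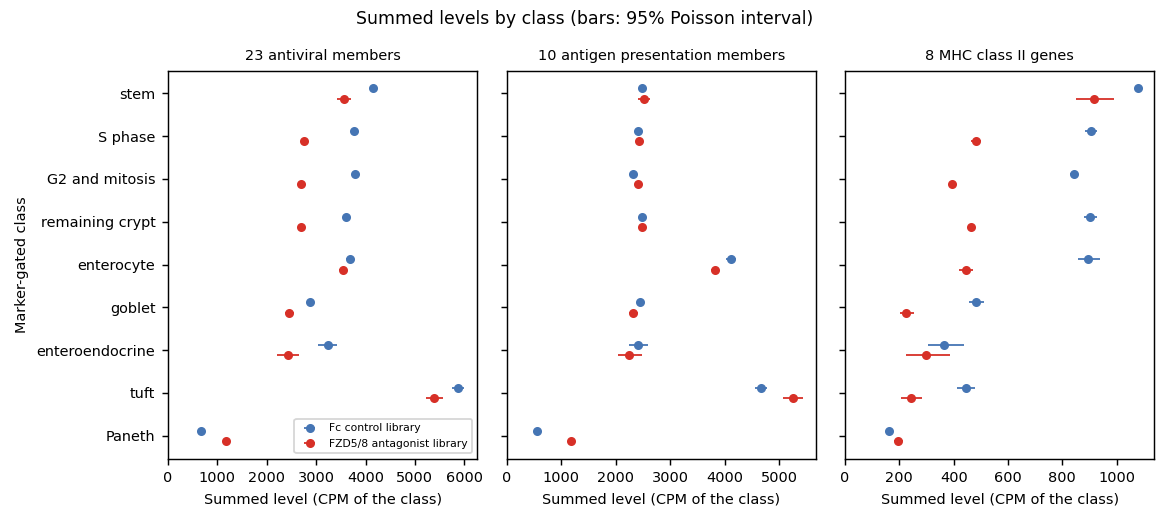
Summed levels of the 23 antiviral members, the 10 antigen presentation members and 8 MHC class II genes in each marker-gated class, in CPM of the class, for the Fc control library (blue) and the FZD5/8 antagonist library (red), with 95% Poisson intervals. Tuft cells are highest and Paneth cells lowest for the antiviral members, the antiviral sums of stem, S phase, G2 and mitosis and remaining crypt cells are lower in the antagonist library, and their antigen presentation sums lie close together.

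Within classes, the antiviral median lay below that of all genes in the undifferentiated classes, by little in G2 and mitosis, and was near 0 in enterocytes and tuft cells. The median log2 ratio of the antiviral members was -0.40 in S phase, -0.37 in stem, -0.36 in remaining crypt and -0.22 in G2 and mitosis cells. The medians of all genes there were -0.14, 0.04, -0.06 and -0.14. The antiviral median was -0.11 in goblet, -0.07 in tuft and -0.03 in enterocyte cells, and the last of these ranged from -0.47 to 0.06 over 12 alternatives. The medians of all genes in these 3 classes were -0.06, -0.03 and 0.03. In enteroendocrine cells the antiviral median was -0.35, beside -0.01 for all genes, from 13 members measured in 60 control and 75 antagonist cells. Whether the classes differ in this was not tested. The antigen presentation members had medians of -0.01, -0.04, 0.05 and 0.11 in the first 4 of these classes. Their medians were -0.11 in goblet, 0.22 in tuft, -0.16 in enterocyte and -0.22 in enteroendocrine cells. The Paneth class was not read further, because the median ratio of all genes there was 2.0, beside 1.86 for the members.

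The counts of members past 1.5-fold, made on sums with 0.5 added, stood farthest above the share of all genes in S phase cells. In S phase cells 13 of 43 members (30.2%) were called lower and 0 higher, beside 15.4% and 5.04% of all genes. Remaining crypt cells had 6 lower and 1 higher of 43, beside 10.6% and 7.71%. In the stem class 9 of 44 members were lower and 2 higher, beside 15.0% and 15.2%, and in G2 and mitosis 7 of 43 lower and 0 higher, beside 15.8% and 8.17%. Goblet cells had 1 lower and 2 higher of 40, beside 11.1% and 6.46%, and tuft cells 1 lower and 2 higher of 41, beside 13.0% and 9.06%. Enterocytes had 2 lower and 0 higher of 42, beside 6.26% and 10.6%. Enteroendocrine cells had 3 lower and 0 higher of 22, beside 14.3% and 11.0%.

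In S phase cells the lowest ratios were those of Ifit3, Gbp7 and Ifit2. Ifit3 was at 19.4 CPM (141 UMIs) in control and 3.39 CPM (18 UMIs) in antagonist S phase cells, 5.73-fold lower (3.50 to 9.96). Gbp7 was at 9.78 and 2.82 CPM, 3.46-fold lower (1.97 to 6.51), and Ifit2 at 24.4 and 8.47 CPM, 2.88-fold lower (2.07 to 4.09). These 3 ratios were farther from 1 than over all cells. The highest ratios there were those of Psmb9, at 265 and 352 CPM (ratio 1.33, 1.25 to 1.42), Tap2, at 9.64 and 11.9 CPM, and Lgals3bp, at 174 and 191 CPM. The interval of Tap2 included equality. In remaining crypt cells Ifit3 was at 17.3 and 6.58 CPM, Nlrc5 at 3.19 and 1.69 CPM and Ifit2 at 10.5 and 5.88 CPM. The highest ratios in that class were those of Tap2, at 5.95 CPM (41 UMIs) and 11.5 CPM (244 UMIs), Lgals3bp, at 147 and 194 CPM, and Dhx58, at 6.39 and 7.52 CPM. The interval of Dhx58 included equality. In G2 and mitosis the lowest were Ifitm3, 1.86-fold lower (1.82 to 1.90), Nlrc5 and Ifit3, each 1.81-fold lower, and the highest H2-T3, at 28.5 and 37.0 CPM, Tap2, at 7.96 and 10.3 CPM, and Oas1a, at 23.9 and 30.6 CPM.

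The stem class of the antagonist library was shallow in members' counts. Usp18 had 109 UMIs in control and 0 in antagonist stem cells, with a ratio interval up to 1.20, and Ifit3 had 475 and 2 UMIs. Ddx58 was at 27.7 and 10.8 CPM (716 and 8 UMIs). Psmb9 was at 184 and 260.1 CPM (4750 and 193 UMIs), a ratio of 1.42 (1.22 to 1.64), and Tap2 at 9.16 and 17.5 CPM (237 and 13 UMIs). Gbp2 had 23 and 1 UMIs and its direction there cannot be read.

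In the differentiated classes, Ifitm3 was among the lowest members outside enterocytes. It was at 774 and 526 CPM in goblet cells, at 731 and 429 CPM in tuft cells and at 872 and 443 CPM in enteroendocrine cells, and was at 291 and 315 CPM in enterocytes, where it was not lower. Goblet cells also had Usp18 at 9.93 and 5.85 CPM (23 and 8 UMIs) and Rtp4 at 69.5 and 46.8 CPM among the lowest. Ifit1, Tap2 and Gbp3 were among the highest there. The intervals of Usp18 and of these 3 genes included equality. Tuft cells had Xaf1 at 229 and 161 CPM and Psmb8 at 322 and 243 CPM among the lowest, and Tap2, Dhx58 and Oas2 among the highest, with intervals that included equality. In enterocytes the lowest ratios were those of Psmb8, H2-T3 and Irf8. Psmb8 was at 509 and 335 CPM there, 1.52-fold lower (1.39 to 1.66), H2-T3 at 123 and 81.3 CPM, 1.51-fold lower (1.25 to 1.82), and Irf8 at 62.3 and 42.0 CPM. The median log2 ratio of 5 regulators was -0.49 there. The highest there were Gbp7 at 7.33 and 9.73 CPM, Ifitm2 at 122 and 148 CPM and Usp18 at 19.7 and 23.3 CPM. The intervals of Gbp7 and Usp18 included equality. Enteroendocrine cells had Parp14 at 98.2 and 36.5 CPM and Isg15 at 402 and 245 CPM among the lowest, and Usp18, Psmb9 and Lgals3bp among the highest, with intervals that included equality.

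Some members kept their direction over the 8 classes other than Paneth, on the scale of each class's own total. Irf1, Irf7, Isg15, Bst2 and Xaf1 were lower in the antagonist library in 8 of 8 classes. Stat2 and Ddx58 were lower in 7 of the 7 in which they were measured, Ifit2 in 6 of 6, Ifit3 in 5 of 5 and Nlrc5 in 4 of 4. Psmb9 and Lgals3bp were higher in 8 of 8 and Tap2 in 7 of 7. For Isg15 the log2 ratios in the classes ranged from -0.70 to -0.06 and for Bst2 from -0.54 to -0.05, so that several were small. The intervals of Lgals3bp in goblet, enterocyte and enteroendocrine cells included equality, as did those of Psmb9 in tuft, enterocyte and enteroendocrine cells. The share of all genes with 1 direction in every class was not counted. The median log2 ratio of all genes was below 0 in each of these classes except stem and enterocyte. The classes share their 2 libraries and are not independent of each other.

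**Figure D5:**
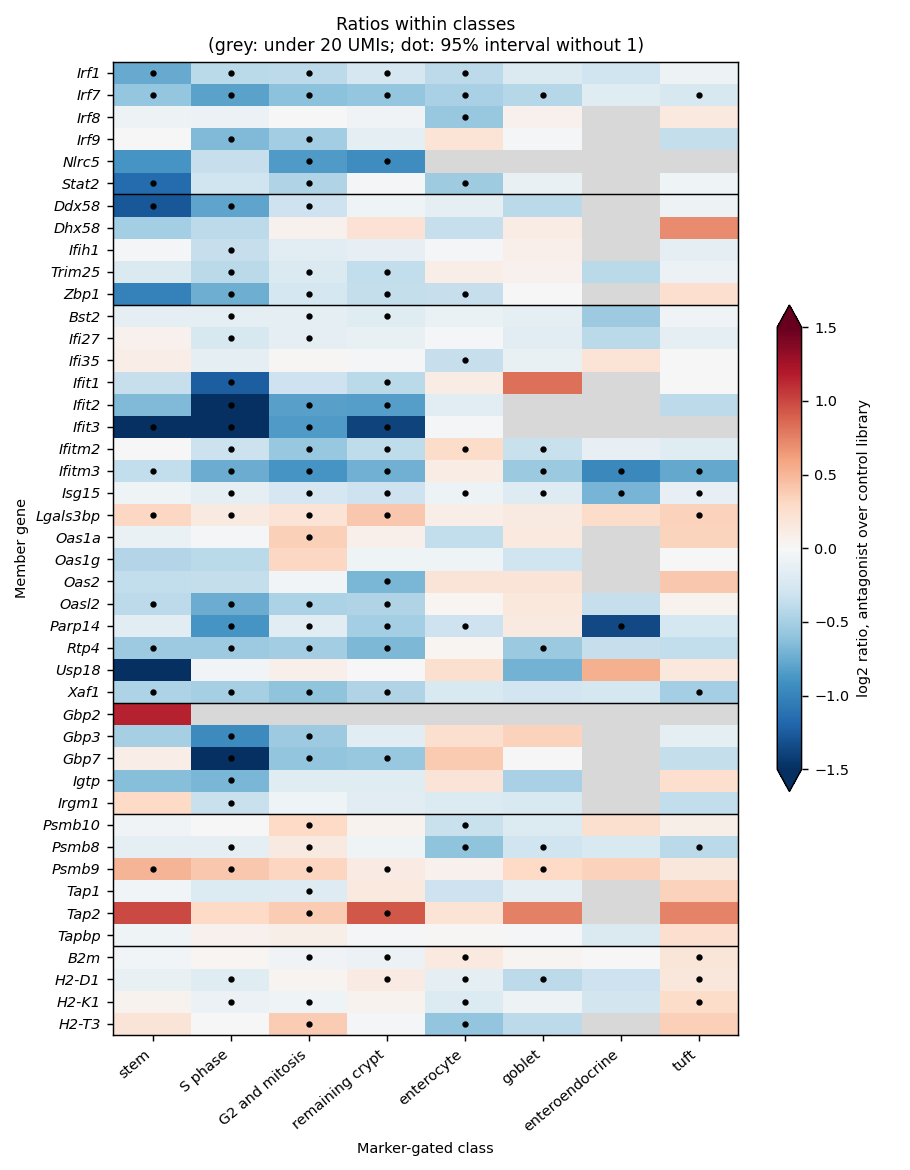
Log2 ratio, antagonist over control library, of the 44 members (vertical axis, grouped by role) in 8 marker-gated classes (horizontal axis), from blue (lower in the antagonist library) to red (higher). Grey marks fewer than 20 UMIs and a dot marks a 95% interval that does not include equality. Ifit2, Ifit3 and Ifitm3 are blue in the undifferentiated classes, Psmb9 and Tap2 are red in all classes where they were measured, and the strong colours of Gbp2 and Usp18 in the stem class rest on 1 and 0 antagonist UMIs.

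The rest of the interferon pathway was read from lists of genes that are no members. Of the 9 interferon genes listed as ligands, 8 had 0 UMIs in both libraries, and Ifnk had 1 UMI in the control library. The interval of a count of 0 reached 0.0557 CPM in the control and 0.0679 CPM in the antagonist library. Of the 6 receptor chains, 4 were lower in the antagonist library and 1 was called, with a median log2 ratio of -0.31. Ifnar2, of the type I interferon receptor, was at 7.34 and 4.58 CPM, 1.60-fold lower (1.37 to 1.87), and its partner Ifnar1 at 20.1 and 14.3 CPM, 1.40-fold lower (1.28 to 1.53). Ifngr1, of the interferon gamma receptor, was at 74.8 and 85.7 CPM, with a ratio of 1.15 (1.10 to 1.19), and Il10rb at 25.2 and 27.1 CPM. The 11 genes of signal transduction had a median of -0.19, with 1 called lower. Socs1, an inhibitor of JAK kinases, was at 6.04 and 3.98 CPM and Stat3 at 17.5 and 13.2 CPM, whereas Irf3 and Ptpn2 were level, at 32.2 and 33.2 CPM and at 66.5 and 68.3 CPM.

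Among 6 sensor adaptors the median was -0.13. Tmem173, which encodes STING, was at 1.99 and 0.994 CPM, 2.01-fold lower (1.45 to 2.81), and Tbk1, the kinase that activates Irf3, at 24.5 and 20.8 CPM. Ticam1, which encodes TRIF, was at 4.14 and 6.18 CPM, with a ratio of 1.49 (1.27 to 1.76), and Mb21d1, which encodes cGAS, at 14.3 and 15.5 CPM. Of 21 other interferon-stimulated genes, 19 were lower and 7 (33.3%) were called lower, with a median of -0.40, beside 19.3% and -0.15 for all genes. Iigp1, an IRG GTPase, was at 9.80 and 3.48 CPM, 2.82-fold lower (2.39 to 3.33). The next lowest, Gbp4, had levels of 0.332 and 0.147 CPM and an interval that included equality. Samd9l and Sp100 were the 2 highest, at 38.9 and 50.7 CPM and at 17.2 and 21.1 CPM.

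The immunoproteasome subunits were not alone in being higher. The 7 other beta subunits of the proteasome that were listed, Psmb1 to Psmb7, all had ratios over 1. Their median log2 ratio was 0.22, against 0.20 for the 6 antigen processing members, and no gene of either list was called. Psmb2 was at 223 and 283 CPM, with a ratio of 1.27 (1.24 to 1.30), and Psmb3 at 541 and 662 CPM. The lowest were Psmb5, at 253 and 255 CPM, and Psmb1, at 472 and 512 CPM. The ratio of Psmb9, 1.39, was above all 7 of these.

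MHC class II, which in this epithelium is expressed under interferon gamma and its own transactivator Ciita, differed more than the members did. Of 8 genes, 7 were called lower, with a median log2 ratio of -1.26. Ciita was at 3.99 and 1.27 CPM, 3.14-fold lower (2.40 to 4.15), and Cd74, the invariant chain, at 594 and 267 CPM, 2.22-fold lower (2.18 to 2.27). H2-Aa was at 60.7 and 21.4 CPM, and the highest ratios were those of Ctss, at 57.1 and 53.5 CPM, and H2-DMa, at 18.4 and 11.1 CPM. In the stem class the summed class II level was closer between the libraries, at 1079 and 918 CPM, than over all cells, at 883 and 424 CPM. Beside the class II level of a cell, the members were compared in cells thinned to 3000 UMIs. Control cells without a class II UMI (2100 cells) had antiviral members at 3774 CPM and antigen presentation members at 2462 CPM, and those with 5 or more (1267 cells) had 4160.2 and 2818 CPM. Antagonist cells without one (2356 cells) had 2678 and 2443 CPM, and those with 5 or more (192 cells) had 3436 and 2944 CPM. The sums with class II were thus higher in each library. Without Ifitm2 and Ifitm3 the libraries differed in the direction of the antiviral sum. In control cells it was then 1838 CPM without class II and lower, at 1682 CPM, with 5 or more class II UMIs. In antagonist cells it was 1565 CPM and still higher, at 1755 CPM, with 5 or more. Of 43 members measured over all control cells, 18 were higher and 25 lower in cells with 5 or more class II UMIs. Of 42 over all antagonist cells, 22 were higher and 20 lower. These counts mix the cell classes. Within the control stem class the balance was the other way, with 23 of 41 members higher and 18 lower. In the antagonist stem class 8 members were measured, 2 higher and 6 lower. Remaining crypt cells had 14 higher and 16 lower of 30 in the control library, and 18 and 18 of 36 in the antagonist library. Among cells without class II, the antiviral sum was lower in the antagonist library with and without both genes.

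Split by promoter, the 17 members with an ISRE core had a median log2 ratio of -0.25, with 15 lower in the antagonist library and 4 called. The 18 without it had a median of -0.06, with 12 lower and 2 called. Over all genes the median was -0.15 and 19.3% were called lower. The split overlaps with that by role, because 1 of 9 antigen processing and MHC class I genes held a core. Promoter and role were not told apart here. Among the genes with printed windows, which were picked by their ratios, Ifit3 and Ifitm3, each with 2 cores, were 1.98-fold and 1.85-fold lower. Isg15, with 3, was 1.06-fold lower and Oas1a, with 2, had a ratio of 1.17. Not printed were Ifit2 and Irf7, which have no core and were 2.16-fold and 1.52-fold lower. Gbp2, with 1 core, was 3.77-fold lower on 46 and 10 UMIs. Psmb9 without one had a ratio of 1.39.

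The number of members called lower moved with the processing. With cells thinned to 3000 UMIs it was 14, beside 23.4% of all genes, and thinning also left out the 3727 control and 5983 antagonist cells of lower depth. The deeper cells without thinning gave 6, beside 19.8% of all genes. Without the differentiated classes it was 11, beside 20.6%, and with the classes weighted alike 4, beside 14.4%.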

How the data were processed

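The authors deposited raw UMI counts for each gene and barcode. The submitters' processing notes name Cell Ranger and the build GRCm38 (mm10), and software version 3.1.0 stands in the file headers. Kept cells had at least 500 genes and at most 20% mitochondrial UMIs (88.9% and 84.2% of barcodes). No doublet caller was run, so doublets remain. Counts were summed per library and divided by the total to give CPM, with exact Poisson intervals for levels, conditional binomial intervals for ratios and Clopper-Pearson intervals for shares (Python 3.11.15, numpy 2.4.6, scipy 1.17.1, pandas 2.3.3). Log2 ratios and calls had 0.5 added to each sum. The calculation was tested on simulated data.

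Classes were gated in order, by marker UMIs per 10000 and a minimum of marker genes: non-epithelial (3 genes), Paneth (1000), goblet (200), enteroendocrine (20), tuft (20), enterocyte (150), G2 and mitosis (20), S phase (10), stem (30), then remaining crypt cells. The members and lists were chosen with earlier results of these data known, and H2-Ke6 was taken off the list of other MHC class I genes after its value had been seen, as it encodes a dehydrogenase. Named with levels were 11 members in any case (Isg15, Ifit1, Irf7, Oas1a, Bst2, Psmb8, Tap1, B2m, H2-K1, H2-D1, Nlrc5), among members with at least 5 CPM the 10 highest and 10 lowest ratios, per class the 3 highest and 3 lowest, and of each other list the 2 highest and 2 lowest with at least 20 UMIs, plus Cd74 and Ciita, and 1 further gene of the rule is not reported here. Alternatives were other cell filters, thinning, scalings, weights, count minimums, pseudocounts and gate limits, and 5 added after seeing the data. Gene coordinates came from GENCODE M21 (GRCm38), which held 30934 of 31053 identifiers. Similar 3' ends were sought with blastn 2.17.0 over 500 bases (at least 95% identity over 90 bases).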

Additional observations from a re-analysis of the deposited data

How the results depend on the processing

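Of 15 alternatives, 10 planned and 5 added after seeing the data, none turned the median of all members or of the antiviral members, and 2 turned that of the antigen presentation members. After division by the median ratio of all genes, the median log2 ratio of the 44 members was -0.04 (reported -0.19), that of the antiviral members -0.10 (reported -0.25) and that of the antigen presentation members 0.21 (reported 0.06), and 2 members were called higher (reported 0). With cells thinned to 3000 UMIs the antigen presentation median was -0.03, 14 members were called lower (reported 7) and 1 higher. With each cell weighted alike the antigen presentation median was -0.03 and 1 member was called higher. With cell classes weighted alike 4 members were called lower and 1 higher. Without the differentiated classes 11 were called lower. The cause of these shifts was not tested. The difference between both medians was -0.31 and stayed between -0.39 and -0.24. For single members, 507 of 659 values moved by less than their counting interval and 152 by more. In the classes, 207 of 216 medians moved by less and 9 by more. Depth limits the stem class of the antagonist library (357 cells), the enteroendocrine class (60 and 75 cells) and members with few UMIs such as Gbp2 and Nlrc5. No paired analysis was possible because each condition has 1 library.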

Other observations

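The other MHC class I and peptide loading genes, 16 measured, had a median log2 ratio of 0.06, with 8 higher and 8 lower in the antagonist library, 1 called in each direction. H2-Q1 was at 3.14 CPM in the control and 5.28 CPM in the antagonist library, with a ratio of 1.68 (1.40 to 2.02). Calr, the chaperone calreticulin, was at 179.7 and 265 CPM, with a ratio of 1.47 (1.44 to 1.51), and Pdia3 and Canx, which work with it in folding the heavy chain, were at 468 and 565 CPM and at 249.8 and 303 CPM. H2-Q4 was at 31.7 and 20.2 CPM, 1.57-fold lower (1.46 to 1.69), and H2-Q6 at 9.35 and 6.26 CPM, 1.49-fold lower (1.31 to 1.71). The H2-Q genes are close copies of each other, so reads could be split between them and each of these values is uncertain. H2-T23, H2-Q2, H2-Q7, H2-Q10, H2-T22, H2-M3, Pdia3, Canx and the proteasome activator subunits are named after their values were seen. The latter, Psme1 and Psme2, were at 721 and 692 CPM and at 718 and 876 CPM. Among these genes, Calr, Pdia3 and Canx were above 1 in ratio, whereas the heavy chain genes went both ways. H2-Q4, H2-Q6 and H2-T23, at 92.8 and 70.3 CPM, were below 1, as were H2-Q7, H2-T22 and H2-M3. H2-Q1 was above 1, as were H2-Q2, at 48.0 and 67.3 CPM, and H2-Q10, at 4.62 and 5.71 CPM.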
